A study of Mus musculus with 7 samples.

Results

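Genes for nuclear receptor coactivators and corepressors were examined in hematopoietic stem cells (HSCs), the marrow cells from which every blood lineage is renewed, from Ahr-KO and WT mice. The members were 9 named genes, Ncoa1, Ncoa2, Ncoa3, Ncoa4, Ncoa7, Nrip1, Ncor1, Ep300 and Crebbp, and a row of the array table counted when the platform annotation named 1 of them alone. That gave 8 genes with 1 probe set each, out of 22180 genes with a probe set of their own. No row was annotated with Ncor1 alone, so its array values were not analysed here. The genes were selected on earlier values of this same genotype contrast, in which Ncoa3 had a large difference. Their differences between genotypes are therefore given as a description. The p-values and the interval printed for them come from these same values and support no conclusion about them.

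The Ahr-KO mice carried an Ahr knockout and the WT mice wild-type Ahr, both on C57BL/6J and both killed at 8 weeks of age, with no other agent or allele named. Ahr encodes the aryl hydrocarbon receptor (AhR), a ligand-activated transcription factor. Lineage-negative marrow was sorted by SLAM-family markers, and biotin-labelled cDNA was hybridised to 3 Ahr-KO and 4 WT single-channel Affymetrix arrays. The labels say neither which part of Ahr was deleted nor whether an array holds 1 mouse or a pool, so any spread between arrays may be partly technical.

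Coregulators act on genes without binding DNA directly. Agonist-bound nuclear receptors recruit p160 coactivators, encoded by Ncoa1, Ncoa2 and Ncoa3, through short leucine-rich helices, and these bring in the histone acetyltransferases CBP (Crebbp) and p300 (Ep300). Corepressors such as NCoR1 and RIP140 (Nrip1) recruit deacetylases instead. AhR with its partner ARNT is known to use the same p160 and CBP/p300 proteins.

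The AhR and ARNT pair recognises DNA that contains GCGTG, so upstream sequence was searched for these letters on either strand, where the reverse strand reads CACGC. RefSeq (GRCm38.p6) gave 12 windows of 250 bases before a start site for 7 of the 9 genes, Ncor1 included, and none was used for Ncoa2 or Ncoa3. The letters stood in 3 of the 12 windows, against 28.2% of 32851 windows of the same length. They were 1 of the 2 Nrip1 windows, 1 of the 3 Ncoa4 windows and the Ncoa1 window, and the Crebbp and Ep300 windows held none. GC content goes with such matches: of windows with at least 60% GC, 53.9% held the letters, and 7 member windows were that rich in GC, 3 of them with a match. Shown here, 5′ to 3′ with matches in capitals, are the Ncoa1 window, the single-start member with matches, and the window of the farther upstream start of Nrip1, which has none. Nrip1 had the largest difference between genotype means among members with a window.
Ncoa1, minus strand of chr12:4477183-4477432: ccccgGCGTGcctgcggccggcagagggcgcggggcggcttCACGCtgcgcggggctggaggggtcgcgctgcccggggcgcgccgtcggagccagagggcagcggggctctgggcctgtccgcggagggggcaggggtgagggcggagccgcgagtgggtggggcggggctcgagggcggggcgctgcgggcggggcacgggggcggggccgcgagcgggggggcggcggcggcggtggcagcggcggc
Nrip1, minus strand of chr16:76373828-76374077: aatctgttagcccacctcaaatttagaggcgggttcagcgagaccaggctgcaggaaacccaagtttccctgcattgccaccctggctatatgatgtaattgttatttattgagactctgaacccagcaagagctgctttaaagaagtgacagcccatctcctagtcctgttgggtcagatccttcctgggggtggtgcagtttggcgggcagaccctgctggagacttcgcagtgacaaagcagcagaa
The Ncoa1 matches begin 245 and 209 bases before the start, and the match in the other Nrip1 window begins 108 bases before its start. A match is a string of letters, not a measured binding site.

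Of the p160 genes, Ncoa3 stood apart between genotypes, while Ncoa1 and Ncoa2 did not. Values are the deposited linear intensities, in array replicate order. Ncoa3, which encodes the p160 coactivator SRC-3, had intensities of 198, 141 and 48.5 in Ahr-KO cells, against 8.70, 1.53, 31.1 and 20.0 in WT cells. Every Ahr-KO array lay above every WT array, and the nearest values were 48.5 in Ahr-KO and 31.1 in WT. On the log2(intensity + 1) scale the mean was 6.81 ± 1.05 (SD, n = 3) in Ahr-KO HSCs and 3.50 ± 1.61 (SD, n = 4) in WT HSCs, a difference of 3.30 ± 0.94 (SE, limma). A background mark was set on each array at the intensity that 95% of 1108 olfactory receptor probe sets did not exceed, which came to 33.8 to 42.8. Ncoa3 exceeded it on 3 of 3 Ahr-KO arrays and on 0 of 4 WT arrays, so its WT level is not measured above background. The size of the difference follows from how such low values are handled: with a pseudocount of 16 in place of 1 it was 2.14. Leaving out single arrays gave 2.58 to 3.89. Groups that do not overlap on all 7 arrays cannot overlap on fewer, so those fits do not test the separation. In sorted populations, fewer cells of a type and less RNA per cell cannot be told apart.

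Ncoa2, which encodes the p160 coactivator SRC-2, had intensities of 178, 256 and 129 in Ahr-KO cells, against 279, 47.2, 179 and 346 in WT cells. All 7 arrays exceeded the background mark, and the 3 Ahr-KO values lay inside the WT range. The log2 difference was 0.09 ± 0.74 (SE), and its sign turned without Ahr-KO replicate 2 (-0.16) or WT replicate 2 (-0.52). Ncoa1, which encodes SRC-1, had intensities of 1.76, 76.1 and 76.2 in Ahr-KO cells, against 11.5, 28.9, 3.14 and 114 in WT cells. Its spread was wide in either genotype, with log2 SDs of 2.77 in Ahr-KO and 2.03 in WT, and it exceeded the mark on 2 Ahr-KO arrays and 1 WT array. The log2 difference of 0.31 ± 1.48 (SE) changed to 1.91 without Ahr-KO replicate 1, and to -0.49 without Ahr-KO replicate 2 or 3 and -0.46 without WT replicate 3. Ncoa1 was the 1 member that the RefSeq table placed on the chromosome of Ahr itself.

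**Figure D1:**
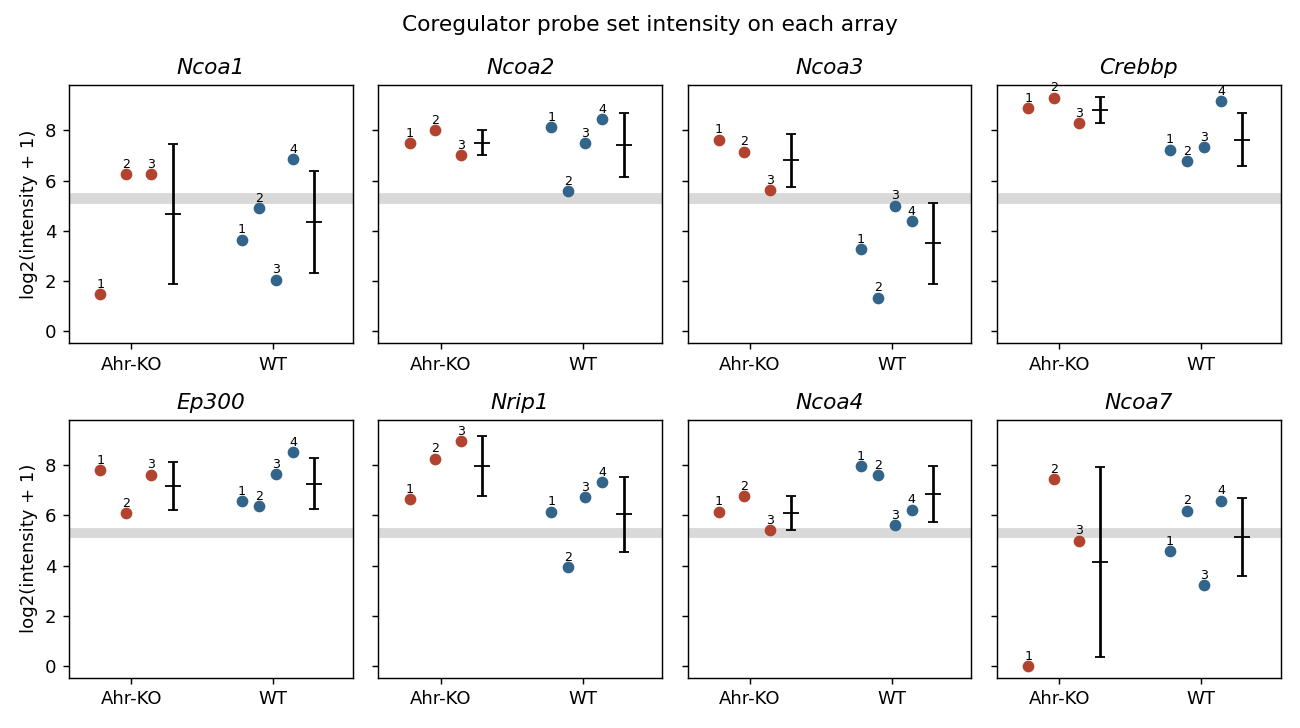
Each point is the log2(intensity + 1) of 1 coregulator probe set on 1 array, numbered by replicate, with Ahr-KO (red, n = 3) left of WT (blue, n = 4); bars give the mean ± SD and the grey band the range of the background mark over the arrays. Only for Ncoa3 do the 3 Ahr-KO points all lie above the 4 WT points.

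The acetyltransferase genes differed from each other in pattern. Crebbp had intensities of 473, 633 and 310 in Ahr-KO cells, against 150, 108, 160 and 572 in WT cells. The Ahr-KO values exceeded those of WT replicates 1, 2 and 3, and WT replicate 4 lay among them. The log2 mean was 8.83 ± 0.52 (SD, n = 3) in Ahr-KO HSCs and 7.62 ± 1.05 (SD, n = 4) in WT HSCs, a difference of 1.20 ± 0.66 (SE), or 1.72 without WT replicate 4. Ep300, its close paralog, had intensities of 221, 66.7 and 196 in Ahr-KO cells, against 93.0, 80.9, 198 and 367 in WT cells. These groups overlapped throughout, with the lowest value of all 7 arrays on an Ahr-KO array and the highest on a WT array. The log2 difference was -0.10 ± 0.71 (SE), and its 95% interval in the fit ran from -1.75 to 1.55. Its sign turned when Ahr-KO replicate 2 was left out (0.44), or when replicate 3 (0.02) or 4 (0.32) of WT was. Both genes exceeded the background mark on all 7 arrays. Whether probes of Crebbp and Ep300, or of the p160 genes, share sequence was not checked.

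Nrip1, whose product RIP140 represses many nuclear receptors when ligand is bound, had intensities of 99.3, 305 and 499 in Ahr-KO cells, against 70.0, 14.3, 105 and 160 in WT cells. Ahr-KO replicates 2 and 3 stood above every WT array, and Ahr-KO replicate 1 lay within the WT range. The log2 mean was 7.96 ± 1.19 (SD, n = 3) in Ahr-KO HSCs and 6.03 ± 1.48 (SD, n = 4) in WT HSCs, a difference of 1.92 ± 0.92 (SE). Without WT replicate 2, the single array on which Nrip1 did not exceed the background mark, the difference was 1.22. Without Ahr-KO replicate 1 it was 2.58.

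Ncoa4 and Ncoa7 carry coactivator names but are known for other roles. Ncoa4, which encodes the receptor that delivers ferritin to autophagy and releases its iron, had intensities of 69.7, 107 and 41.5 in Ahr-KO cells, against 246, 192, 48.2 and 74.1 in WT cells. The WT arrays fell apart into replicates 1 and 2, above every Ahr-KO array, and replicates 3 and 4, within the Ahr-KO range. The log2 difference was -0.75 ± 0.70 (SE), or -0.38 without WT replicate 1 and -1.15 without WT replicate 3. Ncoa7, a member of the TLDc family linked to oxidation resistance, was listed at 0 on Ahr-KO replicate 1 and had 172 and 30.8 on the other Ahr-KO arrays, against 22.7, 71.8, 8.36 and 94.7 in WT. Its Ahr-KO values spanned more than the whole WT range, and it exceeded the background mark on 1 Ahr-KO array and 2 WT arrays. The log2 difference of -1.0 ± 1.68 (SE) rested on the array at 0: without it the value was 1.07, without Ahr-KO replicate 2 it was -2.64, and a pseudocount of 16 gave -0.08.

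**Figure D2:**
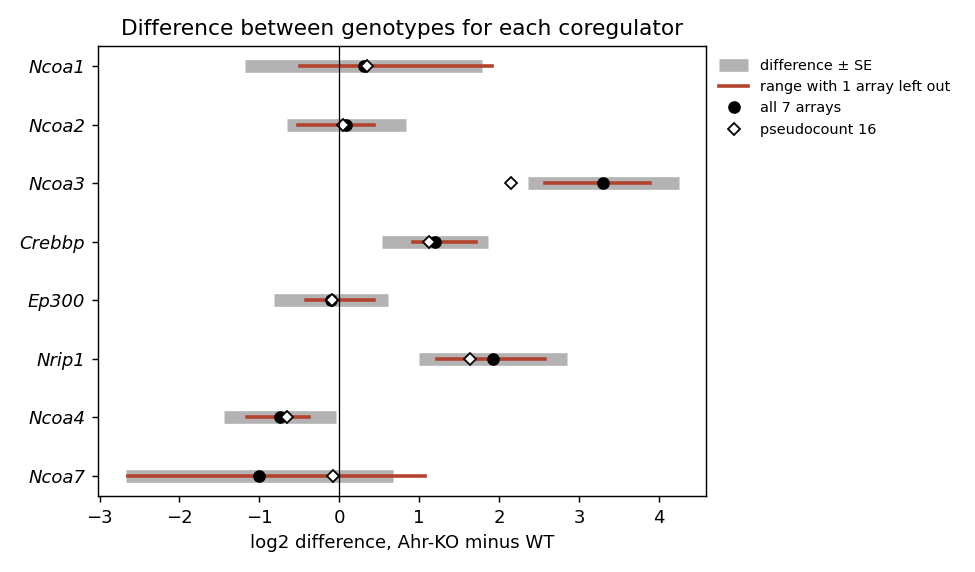
Points give the log2 difference, Ahr-KO minus WT, of each coregulator over all 7 arrays, grey bars 1 SE either way, red lines the range when single arrays are left out, and diamonds the value with a pseudocount of 16. Ncoa3, Nrip1 and Crebbp stay above 0 and Ncoa4 below it throughout, whereas the red lines of Ncoa1, Ncoa2, Ep300 and Ncoa7 cross 0.

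Across the 8 coregulators, 5 had a positive difference and 3 a negative one, with a median of 0.20 and a median size of 0.87. Over all 22180 genes, each by its brightest probe set, 48.4% were positive, the median was -0.03 and the median size 0.52. Of those genes 7601 exceeded the background mark on no array, against 0 of the 8 coregulators. The median sizes thus come from sets of unlike level. None of the 8 passed the adjusted threshold, with limma p-values of 0.963 to 0.996 after Benjamini-Hochberg adjustment, and none of the 25335 tested probe sets did (0%; lowest adjusted p = 0.961). At an unadjusted limma p under 0.05 stood 1 of the 8, Ncoa3, beside 4.21% of all tested probe sets (1067). By other fits the adjusted count also stayed at 0, the unmoderated test included. Groups did not overlap for 1 of the 8, beside 5.74% of all tested probe sets, of which 2.61% were higher and 3.13% lower in Ahr-KO. A difference larger in size than that of Ncoa3 was seen in 0.568% of tested probe sets, and larger than that of Nrip1 in 5.62%. These shares describe where values that chose the genes lie in the table and support nothing further.

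Much of the spread of the coregulators lay between arrays of the same genotype. On WT replicate 4, 6 of the 8 had their highest WT value, where 26.8% of all tested probe sets had theirs. On WT replicate 2, 5 of the 8 had their lowest WT value, where 32.8% of all tested probe sets had theirs. These were also the arrays with the largest and the smallest share of tested probe sets above the background mark, 44.9% and 30.7%; the other arrays had 34.0 to 41.9%. Relative to each gene's mean over the 7 arrays, the coregulators averaged -0.53, 1.12 and 0.48 log2 units over the Ahr-KO arrays, against -0.35, -0.96, -0.66 and 0.90 over those of WT. Ahr-KO replicate 2 and WT replicate 4, the arrays with the most probe sets above background, were thus the highest of their genotypes. The part of that brightness in any coregulator difference was not tested. After quantile normalization the differences were 0.45 for Ncoa1, 0.02 for Ncoa2, 3.25 for Ncoa3, -0.71 for Ncoa4, -1.02 for Ncoa7, 1.93 for Nrip1, -0.20 for Ep300 and 1.09 for Crebbp. The residual SD of Ncoa7 (2.68) and Ncoa1 (2.35) exceeded that of 96.9% and 93.7% of tested probe sets of like level, those within 0.5 log2 units of the gene's mean. For the other coregulators the residual SD was 0.88 to 1.41, between the 36.7 and 71.1 percentiles of probe sets of like level.

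**Figure D3:**
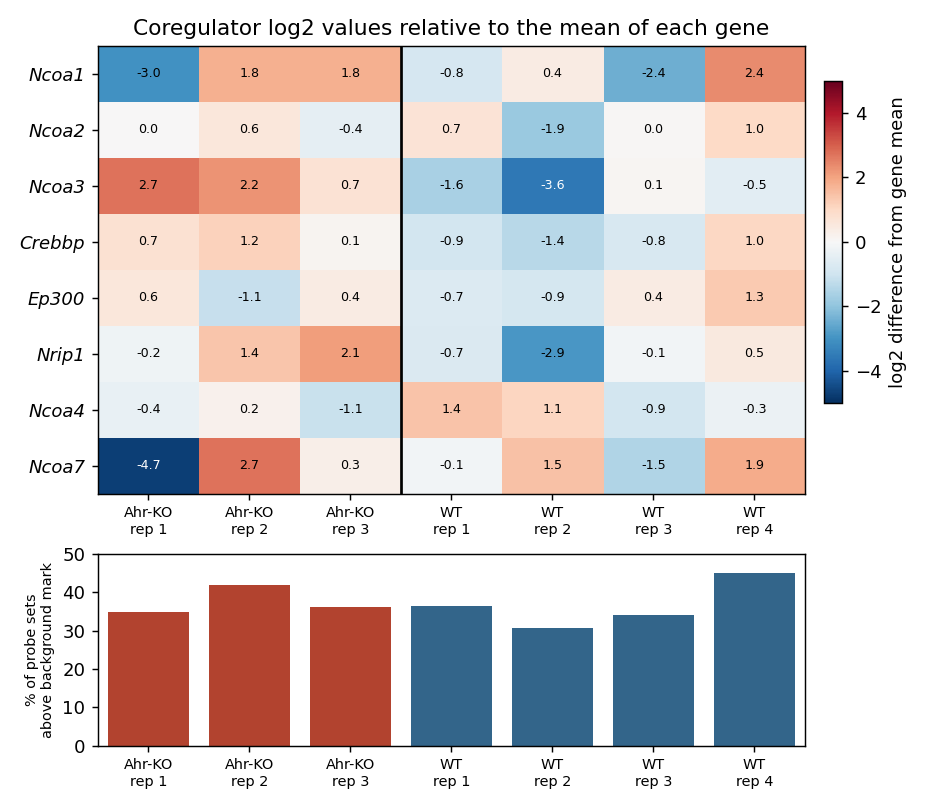
Above, colour and number give the log2 value of each coregulator on each array minus that gene's mean over the 7 arrays, with Ahr-KO arrays left of WT arrays. Below, bars give the percentage of tested probe sets above the background mark, lowest on WT replicate 2 (30.7%) and highest on WT replicate 4 (44.9%).

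Likeness of profile was measured as the mean absolute difference, over the 7 arrays, of log2 values centred on each gene's mean. Among the 28 pairs of coregulators, Ncoa2 and Crebbp were nearest (0.70), followed by Ep300 and Crebbp (0.71), and Ncoa3 and Ncoa7 were farthest (2.69). Ncoa3 lay nearer to Nrip1 (1.14) than to Ncoa2 (1.59) or Ncoa1 (2.49). Among 14578 other genes above the mark on at least 1 array, the nearest to Ncoa3 were Dennd6b (0.44), Hdhd2 (0.54) and Rps4l (0.57), where the median distance was 1.83. Hdhd2 had intensities of 290, 166 and 157 in Ahr-KO cells, against 9.08, 5.26, 61.6 and 63.3 in WT cells. The nearest to Nrip1 were Nkiras1 (0.39), Cstf2t (0.41) and Plscr1 (0.42), and the nearest to Crebbp were Slc25a28 (0.21), Abhd11 (0.25) and Naip3 (0.27). Slc25a28 encodes a mitochondrial iron importer, mitoferrin 2. With 7 arrays and this many genes, close profiles are found also for a gene with no separation of genotypes. Ncoa4 was such a gene and had Nde1 at 0.17, Zfp385a at 0.18 and Eng at 0.25. The distance is not scaled to a gene's spread, and its median for Ncoa4 was 1.13, against 1.83 for Ncoa3.

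The genes that work with these coregulators were described through 7 lists, none of whose members passed the adjusted threshold in either direction. Of 109 measured genes in these lists, 55 were higher and 54 lower, with a median of 0.00. Groups did not overlap for 2 of the 109 that were higher and 2 that were lower in Ahr-KO. Over all tested probe sets these shares were 2.61% and 3.13%. Among 17 other coactivators 10 were positive (median 0.17). The arginine methyltransferase gene Prmt1 averaged 657 ± 428 (SD, n = 3) in Ahr-KO HSCs and 434 ± 426 (SD, n = 4) in WT HSCs, and Smarca4, the BRG1 remodelling ATPase, averaged 465 ± 242 (SD, n = 3) in Ahr-KO HSCs and 432 ± 354 (SD, n = 4) in WT HSCs. Among 13 genes of corepressor complexes 7 were positive (median 0.00). The ligand-dependent corepressor gene Lcor differed by 0.78 ± 0.55 (SE), and the deacetylase genes Hdac1 and Hdac2 by 0.32 and -0.39.

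Of 44 nuclear receptor genes 24 were positive (median 0.15), and 13 exceeded the background mark on no array. Nr2c2, the orphan receptor TR4, averaged 192 ± 19.9 (SD, n = 3) in Ahr-KO HSCs and 219 ± 118 (SD, n = 4) in WT HSCs. Esrrb, an estrogen-related receptor outside the naming rule, was picked after its values were seen. It was the 1 receptor of 44 whose groups did not overlap, beside 5.74% of all tested probe sets. It averaged 28.4 ± 6.78 (SD, n = 3) in Ahr-KO HSCs and 90.5 ± 34.4 (SD, n = 4) in WT HSCs. It exceeded the mark on 1 of 3 Ahr-KO arrays and 3 of 4 WT arrays. The nearest values were 35.4 in Ahr-KO and 40.5 in WT, the latter below the mark of its array (42.4). Of 15 receptor target genes 4 were positive (median -0.39). Tsc22d3, a glucocorticoid-induced gene, differed by -0.20 ± 0.58 (SE), and Srebf1, a target of the oxysterol receptors LXR, by -1.77 ± 1.05 (SE). The other target genes named by brightness were Dusp1, at 0.18 ± 0.81 (SE), and Abca1, at -1.63 ± 1.24 (SE). Of 9 partner factors of CBP and p300, 4 were positive (median -0.16). Creb1, which gave CBP its name, averaged 600 ± 81.6 (SD, n = 3) in Ahr-KO HSCs and 175 ± 157 (SD, n = 4) in WT HSCs, with groups that did not overlap. It exceeded the mark on 3 of 3 Ahr-KO arrays and 3 of 4 WT arrays, with 4.71 on WT replicate 2. Its log2 difference was 2.80 ± 1.32 (SE), or 1.504 without that array. Crtc2, also among the 4 brightest of this list, differed by -0.16 ± 0.74 (SE). Cited2, which competes for a CBP/p300 domain and is required for HSC maintenance, differed by 0.18 ± 0.56 (SE), and Myb by 0.30 ± 0.49 (SE). Cited4, picked after its values were seen, was lower with no overlap, by -0.60 ± 0.42 (SE). It exceeded the mark on 1 of 3 Ahr-KO arrays and 4 of 4 WT arrays.

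For the ferritin receptor gene Ncoa4, the iron list held 7 measured genes, 4 of them positive. Ferritin heavy chain, Fth1, averaged 2273 ± 71.0 (SD, n = 3) in Ahr-KO HSCs and 2262 ± 375 (SD, n = 4) in WT HSCs, a log2 difference of 0.02 ± 0.41 (SE). Herc2, the ubiquitin ligase that turns over NCOA4 protein in human cells, differed by 0.10 ± 1.36 (SE). Ireb2, an iron-regulatory RNA-binding protein gene picked after its values were seen, had groups that did not overlap, at 80.4 ± 80.1 (SD, n = 3) in Ahr-KO HSCs and 6.31 ± 7.54 (SD, n = 4) in WT HSCs. It exceeded the mark on 2 of 3 Ahr-KO arrays and 0 of 4 WT arrays, and the nearest values, 26.9 in Ahr-KO and 17.4 in WT, both lay below it. Beside Ncoa7, the other 4 TLDc genes differed by -0.48 to 0.09, and Oxr1 exceeded the mark on 1 array.

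**Figure D4:**
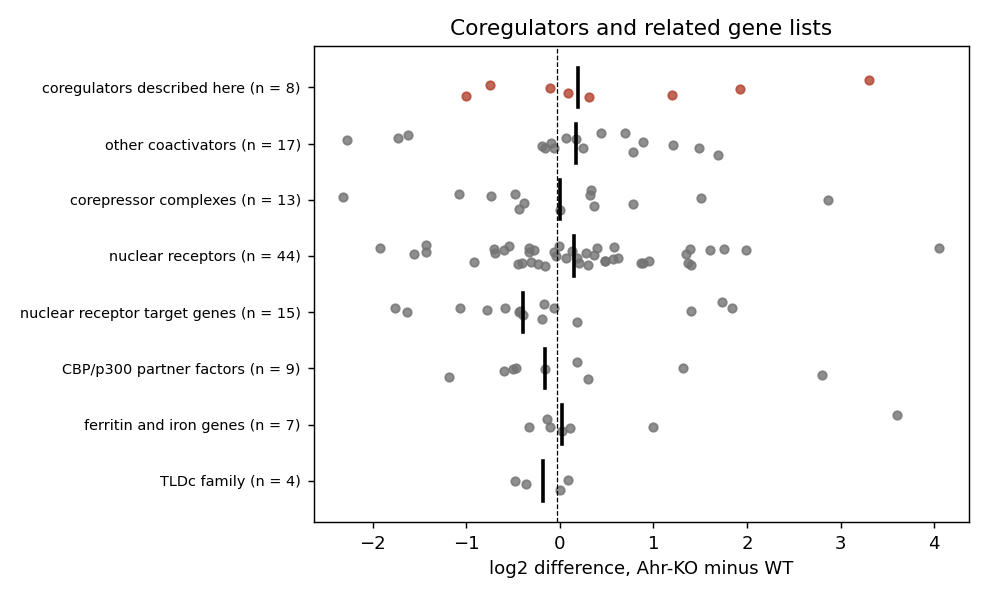
Each point is the log2 difference, Ahr-KO minus WT, of 1 gene by its brightest probe set, in the 8 coregulators (red) and 7 related lists (grey); short bars are list medians and the dashed line the median of all genes (-0.03). The list medians run from -0.39 (receptor target genes) to 0.20 (the coregulators).

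The arrays themselves set limits on these readings. Ahr, the targeted gene, had intensities of 34.1, 137 and 26.4 in Ahr-KO cells, against 31.3, 57.9, 14.9 and 20.5 in WT cells, so its probe set does not show the deletion. Ahr exceeded the mark on 1 of 3 Ahr-KO arrays and 1 of 4 WT arrays. With WT signal mostly at background, a loss could hardly be seen. The probe set may also lie outside the deleted part, which was not tested. Of the 7 HSC markers measured, Kit, Hlf and Gata2 stood above the mark on all 7 arrays, Slamf1 on 3 of 3 Ahr-KO arrays and 1 of 4 WT arrays, and Mecom was listed at 0 on WT replicate 2. Slamf1 (2.58) and Mecom (1.30) had higher log2 means in Ahr-KO, and Kit (-0.40), Hlf (-0.66), Procr (-0.65), Tek (-1.43) and Gata2 (-2.11) lower ones. The 7 summed to intensities of 1658 to 1968 in Ahr-KO and 2142 to 6157 in WT, but without Gata2 the sums overlapped, at 1299 to 1901 in Ahr-KO and 1883 to 2548 in WT. All 6 granulocyte and monocyte markers had higher log2 means in Ahr-KO, with summed intensities of 5133 to 14874 in Ahr-KO and 783 to 13286 in WT. That count was 4 of 6 without WT replicate 1, the array with the sum of 783, where S100a8 differed by -0.14 and S100a9 by -0.49. Of 4 listed erythroid markers 2 were measured, Epor (2.25) and Klf1 (1.06), both with higher log2 means in Ahr-KO. Their sums were 31.0 to 334 in Ahr-KO and 8.34 to 98.6 in WT. Klf1 exceeded the mark on 1 array, Ahr-KO replicate 2, and its difference without that array was 0.02. The Epor difference was 0.99 without WT replicate 2. Cd48, whose protein the usual SLAM sort of HSCs selects against, differed by 1.84 ± 1.45 (SE). It exceeded the mark on 3 of 3 Ahr-KO arrays and 2 of 4 WT arrays. Its Ahr-KO values (443, 253 and 117) lay within the WT range (11.5, 171, 679 and 12.2). Of 4 macrophage markers 2 were positive, with sums of 1177 to 3558 in Ahr-KO and 1501 to 2846 in WT. Of T and B cell markers, 5 of 7 exceeded the mark on no array and Cd3e did on all 7. Their sums were 133 to 189 in Ahr-KO and 117 to 162 in WT for T cells, and 33.2 to 62.6 in Ahr-KO and 44.9 to 110 in WT for B cells. The highest granulocyte sum of all 7 arrays was on Ahr-KO replicate 2, which had the highest coregulator average, and the highest of WT on replicate 2, which had the lowest. The part of any of these marker lists in the coregulator differences was not tested.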

How the data were processed

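Biotinylated cDNA from sorted mouse HSCs was measured on 7 arrays. The deposited table holds linear intensities for 41155 probe sets, and the submitters' processing notes name Affymetrix Expression Console. How probe sets were summarized, corrected for background and normalized is not given in the sources used for this work. Array medians differed (16.9 to 22.1), so the deposited probe set intensities do not share 1 distribution. Whether values were normalized at an earlier step cannot be read from that. The number of arrays limits the precision. Pairwise correlations of arrays were 0.637 to 0.765, and no arrays were identical.

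Rows were named through the platform annotation, which listed 25335, of which 23521 had 1 symbol; 23328 of these matched RefSeq (GRCm38.p6) by Entrez ID. log2(intensity + 1) was fitted with limma 3.58.1 (R 4.3.3, lmFit and eBayes) with genotype as the only term, two-sided, adjusted by Benjamini-Hochberg over the 25335 rows. The procedure was tested on simulated data. Where a gene had several probe sets, the brightest stood for it.

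The members and lists were chosen with earlier results of these data known. Named were all 8 members, Ahr, sorting markers, the 4 brightest genes of each list as eligible examples, and the 3 nearest profiles. Alternatives were single arrays left out, a replicate block, quantile normalization, median centring, a pseudocount of 16, a level filter, other variance priors, array weights, all rows and an unmoderated test. Same-numbered arrays did not deviate together (correlations of deviations 0.02, -0.06 and 0.01).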

Additional observations from a re-analysis of the deposited data

How the results depend on the processing

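No fit called a probe set at an adjusted p under 0.05, so the count of 0 held under all 16 alternative fits and the unmoderated test, by which 1094 probe sets stood under 0.05 unadjusted. With the replicate number as a block the unadjusted count was 1120 against 1067, Ncoa3, Nrip1 and Crebbp differed by 3.60, 2.36 and 1.72, and Ep300 turned to 0.32; these differences equal those without WT replicate 4, which has no Ahr-KO array of its number. The titles number the arrays but nothing says a number marks a shared mouse, and the block changed no call. Leaving out single arrays gave unadjusted counts of 954 to 1339. The number of probe sets whose groups do not overlap was then 2349 to 3668, against 1454 with all arrays, since fewer arrays overlap less often. Keeping only probe sets at or above the median level gave 572 unadjusted and 775 without overlap, over 12668 rows, and testing all 41155 rows gave 1781 and 2317. Of the 8 coregulators 7 passed that level filter, Ncoa1 being the exception. Ncoa3, Nrip1 and Crebbp stayed positive and Ncoa4 negative in every fit, and the other 4 changed sign in at least 1. Between 4 and 6 coregulators were positive when arrays were left out. This count, those of coregulators without overlap, of related genes and of granulocyte markers, and the marker sum without Gata2 were added after seeing the data. Nrip1 joined Ncoa3 in having groups without overlap when Ahr-KO replicate 1 was left out, and Crebbp did when WT replicate 4 was, where 12.6% and 10.2% of all tested probe sets had none. Of the 109 related genes, 44 to 62 were positive over these fits. Signal near background limits Ncoa1, Ncoa3 and Ncoa7 most.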

Other observations

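Beyond the genes named by rule, 2 partners of the coregulators had large but uneven values and were picked after their values were seen. Pparg, the fat-cell receptor that recruits p160 coactivators, averaged 264 ± 222 (SD, n = 3) in Ahr-KO HSCs and 13.2 ± 15.8 (SD, n = 4) in WT HSCs, and exceeded the background mark on 2 of 7 arrays. Its log2 difference was 4.05 ± 1.55 (SE), or 3.08 without WT replicate 1 and 2.64 with a pseudocount of 16. All WT values of Pparg lay below the mark, and Ahr-KO replicate 1 (11.7) lay within the WT range. Tbl1x, a subunit of the NCoR1 corepressor complex, averaged 313 ± 445 (SD, n = 3) in Ahr-KO HSCs and 23.4 ± 24.0 (SD, n = 4) in WT HSCs, with a log2 difference of 2.86 ± 1.21 (SE), or 1.51 without Ahr-KO replicate 1. Neither passed the adjusted threshold (limma adjusted p = 0.963 each).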
